A study of Mus musculus with 8 samples.

Results

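The transcripts described here are those that differed most between the normal livers of a mouse liver cancer study. They are 234 of the 45281 probes of an Illumina array, each of which reads 1 transcript. Intensities were floored at each array's 5th percentile, put on the log2 scale and quantile normalized, and the 22640 probes with a mean above the median probe mean (6.13) were kept. A kept probe was a member when its highest and lowest normal liver were more than 2 log2 units, or 4-fold, apart, as 1.03% of the kept probes were. The tumors played no part in that range, although the mean used by the filter runs over all 8 arrays. The spread between normal livers therefore chose the members and is described without a test, and the tumors were compared with it afterwards.

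Total RNA was hybridised from 4 liver tumors of Ctnnb1 flox(ex3)/+ mice and from 4 normal livers of wild-type mice, 1 array per sample. Both groups are on the C57BL/6N background, and the labels give no treatment, age, sex, time of day or feeding state. Ctnnb1 encodes beta-catenin, which carries the canonical Wnt signal, and without exon 3 the protein lacks the sites whose phosphorylation leads to its degradation. The labels name neither the Cre line nor the cell type in which recombination was driven, and normal liver of the mutant mice was not analysed here, so the effects of genotype and of tumor state cannot be told apart. Whether each sample of a group is from its own mouse is not stated, and the p-values reflect only how much these arrays differ, which may be technical.

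Both groups carried liver RNA. The 11 genes of a hepatocyte list summed to normalized intensities of 186540 to 197233 in tumors and 210833 to 231253 in normal livers, and none of them was a member. Genes of the pericentral zone, where hepatocytes normally have active beta-catenin, were mostly higher in tumors, with 28 of the 35 kept probes called higher and 0 lower by a limma fit over all kept probes (adjusted p under 0.05), which called 13.2% of the kept probes higher and 14.2% lower. Without tumor 4 it was 24 of 34 and 0, where 9.03% and 9.17% of all kept probes were called. Background was dimmer on the tumor arrays, with 5th percentiles of 41.7 to 44.0 against 50.2 to 53.8 on the normal liver arrays. Tumor 4 stood apart from the others in one respect. It lay between the lowest and highest of tumors 1 to 3 at 72.3% of the kept probes and at 83.8% of the members, whereas the other tumors lay between their fellows at 39.3% to 47.6% and 32.5% to 43.2%. Called differences and counts of calls are therefore given with and without tumor 4. Where a call is said to end, the arrays listed are those left out singly. Calls that ended under another fit, filter or normalization are given in the closing section on processing.

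Normal mouse liver is not a fixed reference. Hepatocyte genes follow feeding and fasting, the clock, inflammation and sex, and each of these acts through its own regulators, such as PPAR alpha for fatty acid oxidation or STAT3 for acute phase proteins. A dissected liver can also hold RNA of blood, of immune cells or of neighbouring tissue. In RNA of whole tissue, fewer cells of a type and less RNA per cell cannot be told apart.

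Of the 234 members, 195 probes had 1 gene in the array's annotation and named 172 genes, and 39 had none. A gene can have several probes, and 23 genes had 2 member probes. Of the 52 member genes with 2 or more kept probes, 17 had all of them as members. Values given for a member gene are those of 1 probe unless said otherwise, and other probes of the gene may have varied less. The median range over the normal livers was 2.67 log2 units for members and 0.36 for all kept probes. In 90 members the range exceeded 3 log2 units, and the widest reached 7.60. Just inside the threshold lay Gas6 (2.002), Cyb561 (2.004) and Acpp (2.013), and just outside it lay Gna14 (1.996), a second probe of Cpne8 (1.996) and Hbb-bt (1.992). A further 24 probes had a range over 2 but were too dim to pass the filter.

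Each member was placed in a pattern by the widest gap between its sorted normal livers. Liver 3 alone was high in 76 members (32.5%) and liver 4 alone in 61 (26.1%). The next pattern was liver 3 alone low, with 29 members. Livers 2 and 3 were high together in 15, liver 4 alone was low in 11, livers 1 and 4 were high together in 9, and livers 3 and 4 in another 9. The remaining 24 members fell into 5 smaller patterns. Livers 1 and 2 stood on the same side of the gap in 190 members (81.2%), whereas livers 3 and 4 did so in 33 (14.1%). The list thus rests largely on those 2 livers: it held 110 probes when liver 3 was left out, 136 without liver 4 and 24 without both, the last chosen after seeing the data.

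**Figure D1:**
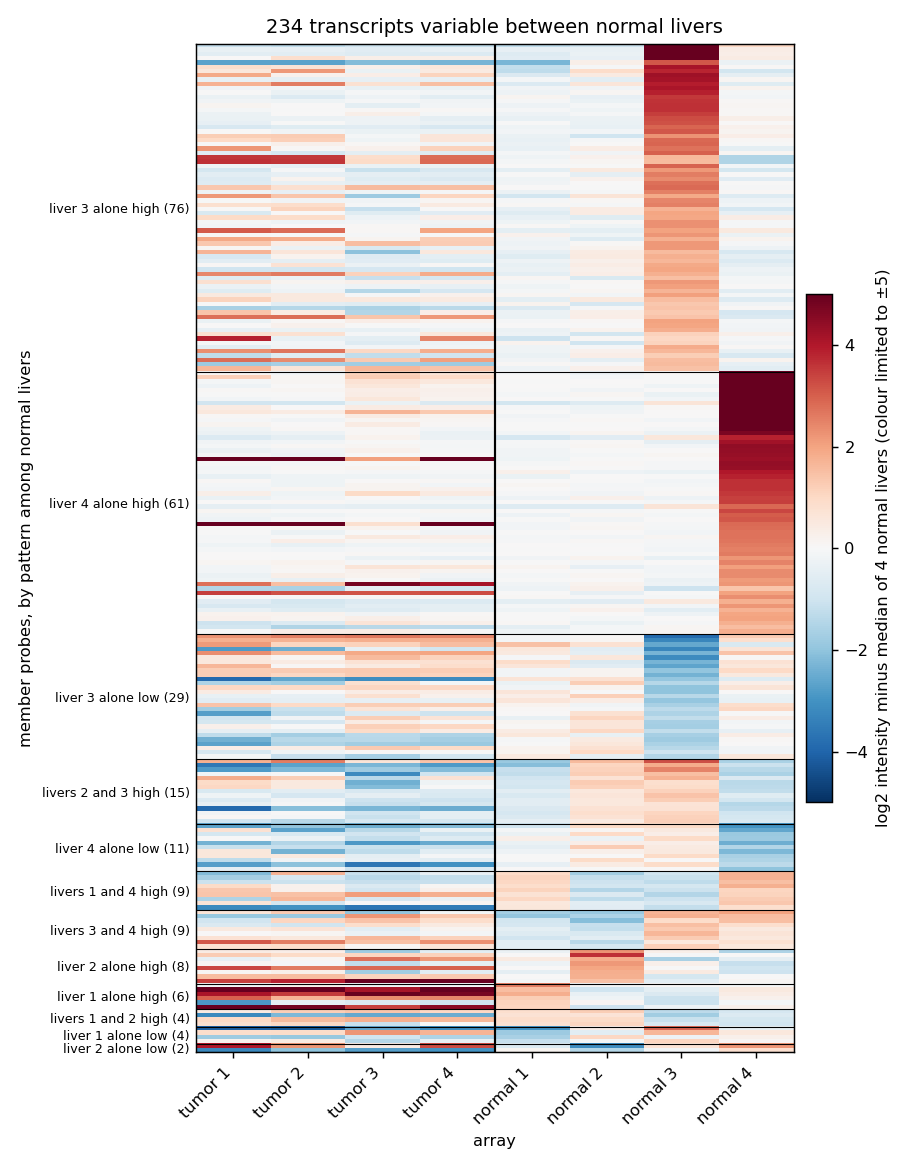
Normalized log2 intensity of the 234 member probes minus the median of the 4 normal livers, with tumors 1 to 4 in the left columns and normal livers 1 to 4 in the right columns. Rows are grouped by pattern, with the number of probes in brackets. Liver 3 holds the high block of 76 probes and liver 4 that of 61, and most tumors are near the other normal livers in both blocks.

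The pattern with liver 4 alone high held 61 probes, 13 of them for genes of a skeletal muscle list. The promoters of 2 of them are shown because 18 of the 39 genes of this pattern with a promoter in the RefSeq table (46.2%) held the letters CAGCTG in the 250 bases before the gene's start, on either strand, whereas 14.7% of all 27025 genes of that table did. CAGCTG is a form of the E-box bound by myogenic factors such as MyoD. The motif was picked after the genes had been seen, and a match is a description of the letters and not a binding site. Both sequences are from build GRCm38.p6, run 5′ to 3′ toward the gene on the minus strand, and carry the match in capitals. Acta1 is read from chr8:123894776-123895025 and Myl1 from chr1:66945057-66945306.
Acta1: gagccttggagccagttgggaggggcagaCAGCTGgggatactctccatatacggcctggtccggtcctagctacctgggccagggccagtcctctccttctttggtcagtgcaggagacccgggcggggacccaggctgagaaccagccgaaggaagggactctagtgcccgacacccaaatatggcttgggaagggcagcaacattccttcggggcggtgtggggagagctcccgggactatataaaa
Myl1: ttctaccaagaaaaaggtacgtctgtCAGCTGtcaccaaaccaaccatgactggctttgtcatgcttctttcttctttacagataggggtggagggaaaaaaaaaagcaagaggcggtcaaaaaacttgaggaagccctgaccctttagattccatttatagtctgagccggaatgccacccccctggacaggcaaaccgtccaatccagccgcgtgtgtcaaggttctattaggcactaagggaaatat

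All 11 measured genes of the skeletal muscle list were members, with 13 probes, and all 13 were high in liver 4 alone. Their intensity in liver 4 was at least 10.9 to 163 times that of the next normal liver, with a median of at least 34.9. These are lower bounds, since no background was subtracted and in 7 of the 13 probes every other array was under 6.5 log2, close to background. Summed over the 11 genes, normalized intensity was 693 to 1009 in the tumors, against 691, 728, 779 and 46700 in normal livers 1 to 4. The tumors thus lay with normal livers 1 to 3. The sum was highest in tumor 3, and tumor 3 was the highest tumor in 36 of the 61 probes of the pattern (59.0%, where 31.8% of all kept probes had it highest).

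Myl1, a fast myosin light chain, had normalized log2 intensities of 6.06, 5.82, 7.12 and 6.62 in tumors 1 to 4, against 5.89, 5.68, 6.01 and 13.28 in normal livers 1 to 4. Acta1, the actin of the skeletal muscle thin filament, had 6.92, 5.82, 6.98 and 6.70 in the tumors and 5.75, 5.62, 5.68 and 13.10 in the normal livers. Tumors 1, 3 and 4 in Myl1 and all tumors in Acta1 were above normal livers 1 to 3, and all were far below liver 4. Tnnc2 and Tnni2, the fast isoforms of troponin C and troponin I, reached 12.13 and 12.49 in liver 4, and every other array lay between 5.55 and 6.68. Atp2a1, the calcium pump of the fast fibre's sarcoplasmic reticulum, reached 12.23 and was at 5.92 to 6.60 elsewhere. Mb, which encodes the oxygen store myoglobin, had 5.72 to 6.54 in the tumors and 5.80 to 5.84 in the other normal livers, against 12.93 in liver 4.

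The same held for motor proteins and energy enzymes. Liver 4 had 11.07 for Tnnt3, 10.92 for Myh4, 10.31 for Myh1, 11.00 for Mylpf and 10.02 for Ckm, the muscle creatine kinase, whose other 7 arrays were all between 5.55 and 5.70. Des, the intermediate filament of muscle that is on the stellate cell list, was milder, with 6.62 to 6.97 in the tumors, 7.30 to 7.53 in normal livers 1 to 3 and 9.63 in liver 4. Pvalb, a calcium buffer of fast fibres, was the member of the muscle list with a second elevated liver. It had 5.71 to 6.32 in the tumors and 5.75, 6.02, 7.29 and 11.73 in normal livers 1 to 4. Other members of this pattern, named after their values were seen, were Tcap, Tpm2, Actn2, Ttn, Ryr1 and Cox6a2, all structural, channel or respiratory proteins of striated muscle.

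A few members of this pattern behaved otherwise. Fxyd6, a regulator of the sodium pump, had 9.68, 8.44, 11.71 and 11.04 in tumors 1 to 4, against 6.75, 7.10, 6.69 and 9.11 in normal livers 1 to 4. It was 2.80 ± 0.74 log2 units higher in tumors (SE, limma adjusted p = 0.0209). That call ended without tumor 4 (0.0658) and without normal liver 1, 2 or 3, and over all alternatives the adjusted p ranged from 0.00666 to 0.0658. The probe ILMN_1256343, with no gene in the annotation, had 14.62, 14.67, 7.85 and 14.82 in the tumors and 5.60, 5.78, 5.82 and 10.08 in the normal livers. ILMN_2906728, also without a gene, had 14.67, 13.62, 6.92 and 14.74 against 5.99, 6.18, 6.03 and 8.95. In both probes tumor 3 fell between the normal livers with low values and liver 4, and the other tumors were far above the normal range. Their differences of 6.17 ± 1.62 and 5.70 ± 1.60 log2 units were past the threshold with all arrays (SE, limma adjusted p = 0.0199 and 0.0265) and missed it without tumor 4 (0.0635 and 0.080, with highest values of 0.0635 and 0.083 over all alternatives). The 2 calls also ended without tumor 1, without tumor 2, without normal liver 1 and without normal liver 2, and that of ILMN_2906728 without normal liver 3 too.

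Liver 3 alone was high in 76 members. Kap and Slc34a1, genes of the kidney tubule, had the widest ranges among them, followed by Klk1 and Spink1 of the pancreatic acinar list. A kidney list was added after these values had been seen, so its counts are a description. Of its 33 genes, 31 were measured, 20 had a kept probe and 12 were member genes, with 15 probes, all high in liver 3 alone. The brightest probe was highest in liver 3 for 25 of the 31 genes, where 26.1% of all kept probes were highest in that liver. The 31 include genes with no kept probe, and some margins were small, as for Aqp2, at 6.29 against 6.26 in liver 2. For 19 of the 31 genes, some probe was more than 2-fold higher in liver 3 than in every other normal liver. In sum, the 31 genes had normalized intensities of 2624 to 2675 in the tumors, against 2454, 2475, 21814 and 2796 in normal livers 1 to 4. The tumors lay close together and between livers 1 and 2 on one side and liver 4 on the other.

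Promoters of 2 kidney genes are shown because GTTAAT, a core of the site of the HNF1 factors that act in kidney and liver, was found in 8 of 45 genes of this pattern (17.8%) and in 7.49% of all genes of the table. Again the letters were chosen after the genes had been seen, and capitals mark a match on either strand. Slc34a1 is read from chr13:55399398-55399647 on the plus strand and Umod from chr7:119479263-119479512 on the minus strand, both of GRCm38.p6.
Slc34a1: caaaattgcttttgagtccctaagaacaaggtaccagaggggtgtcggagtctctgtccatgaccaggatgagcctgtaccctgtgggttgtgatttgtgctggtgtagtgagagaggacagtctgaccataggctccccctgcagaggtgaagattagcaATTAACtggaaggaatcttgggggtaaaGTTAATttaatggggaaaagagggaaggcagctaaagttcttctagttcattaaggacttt
Umod: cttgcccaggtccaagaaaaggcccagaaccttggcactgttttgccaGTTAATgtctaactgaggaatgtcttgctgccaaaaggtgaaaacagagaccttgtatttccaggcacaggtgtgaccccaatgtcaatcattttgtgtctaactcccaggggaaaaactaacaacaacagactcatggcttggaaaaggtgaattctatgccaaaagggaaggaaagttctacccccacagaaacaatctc

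Kap, the androgen-regulated protein of the proximal tubule, had 5.82, 5.72, 5.96 and 5.77 in tumors 1 to 4, against 5.70, 5.94, 13.18 and 8.03 in normal livers 1 to 4. Liver 3 was thus 35.5 times above liver 4, which in turn was above every other array. Slc34a1, the sodium phosphate cotransporter of the proximal tubule, had 5.55 to 5.75 in the tumors and 5.72, 5.78, 11.97 and 6.49 in the normal livers. Klk1, the tissue kallikrein made in kidney, pancreas and salivary gland, had 5.76 to 5.93 in the tumors and 5.82, 6.14, 12.01 and 6.77 in the normal livers. In all 3 genes liver 4 was second, and it was second in 10 of the 15 kidney member probes.

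The other kidney members came from several segments of the nephron. Miox, an inositol oxygenase, and Lrp2, the uptake receptor megalin, are proximal and reached 9.83 and 9.53 in liver 3, with every other array at 6.82 or below. Slc7a9, a cystine carrier, reached 8.46. Umod and Egf mark the thick ascending limb and distal tubule and had 9.34 and 9.04, and Slc12a3, the thiazide-sensitive cotransporter, had 9.08. Cdh16, a cadherin of tubule epithelium, had 10.13 and Fxyd2, a sodium pump subunit, had 9.97. Not all kidney genes followed. The brightest probes of Nphs1 of the podocyte, of Pax2 and of Aqp2 of the collecting duct were at 5.55, 5.82 and 6.29 in liver 3 and no higher than 6.29 on any array. A second probe of Slc12a3 was at 8.96 to 9.21 in the tumors and 8.97 to 9.09 in the normal livers, so probes of that gene disagree.

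Napsa and Tinag, which are also on the kidney list, were not at background in the tumors. Napsa, an aspartic protease, had 7.21, 7.41, 6.01 and 6.82 in the tumors and 5.87, 6.18, 9.11 and 6.27 in the normal livers. Tinag, a basement membrane protein of tubules, had 7.33, 6.34, 7.52 and 7.22 against 5.73, 6.02, 8.15 and 5.92. In Tinag all 4 tumors lay between the 3 low normal livers and liver 3.

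**Figure D2:**
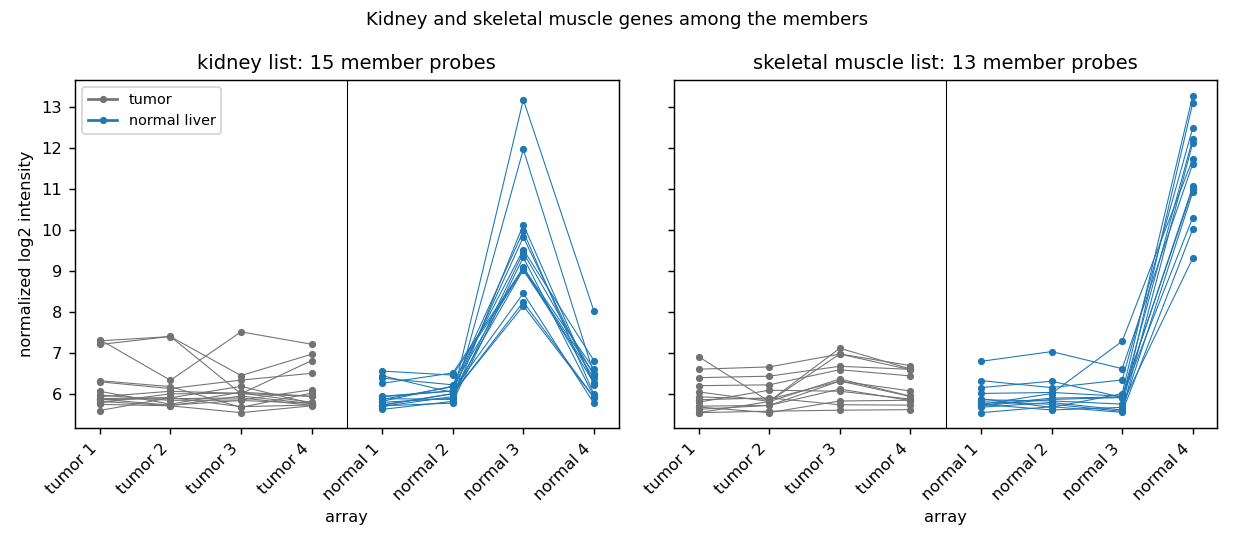
Normalized log2 intensity of the 15 member probes on the kidney list (left panel) and the 13 on the skeletal muscle list (right panel), with tumors 1 to 4 in grey left of normal livers 1 to 4 in blue. Each line is 1 probe. The kidney probes peak in liver 3, up to 13.18 for Kap, and the muscle probes in liver 4, up to 13.28 for Myl1.

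Liver 3 was also high for single genes of other lists. Spink1, a trypsin inhibitor on the pancreatic acinar list, had 7.10 to 7.91 in the tumors and 6.49, 6.65, 12.32 and 7.49 in the normal livers. Spink1 and Klk1 were the only members among the 28 measured genes of that list, whose brightest probes were highest in liver 3 for 9 genes and lowest there for 8. Gpx3, the plasma glutathione peroxidase that is made mostly in kidney, had 9.07 to 9.71 in the tumors and 7.64, 8.76, 12.96 and 8.87 in the normal livers, so the tumors lay inside the normal range. Tff3, a trefoil peptide of mucous epithelia, had 8.87 to 10.69 in the tumors, against 7.43, 8.73, 12.03 and 7.51. The Klk1b26, Klk1b5 and Klk1b27 probes, named after their values were seen, also peaked in liver 3, but these kallikrein genes are near-identical to each other and to Klk1, so their signals cannot be assigned to 1 gene.

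S100a8 and S100a9 form calprotectin, the main cytosolic protein of neutrophils. S100a8 had 12.97, 12.90, 10.28 and 12.13 in tumors 1 to 4, against 9.20, 9.42, 10.91 and 7.82 in normal livers 1 to 4. S100a9 had 12.31, 12.26, 9.60 and 11.51 against 8.51, 8.94, 10.35 and 7.24. Tumor 3 lay inside the normal range for both genes, and the other tumors lay above it. They were 2.73 ± 0.71 and 2.66 ± 0.72 log2 units higher in tumors (SE, limma adjusted p = 0.0194 and 0.0231), but both calls ended without tumor 4 (0.053 and 0.0611). That of S100a9 also ended without tumor 1, tumor 2, normal liver 1 or normal liver 4, and the highest adjusted p over all alternatives was 0.108 for S100a8 and 0.124 for S100a9. Of the 10 kept probes on the neutrophil list, 9 were called higher in tumors and 0 lower (90%, against 13.2% of all kept probes higher). Without tumor 4, 3 were called higher (30%, against 9.03%). Within the normal livers, the brightest probe was highest in liver 3 for 10 of its 11 genes and lowest in liver 4 for 7. Of all kept probes, 26.1% and 24.3% were. Most of these differences were small and close to background, since the list's median over genes was 5.90 to 6.49 log2 in the normal livers. Only 2 genes, S100a8 and S100a9, had a probe more than 2-fold higher in liver 3 than in every other normal liver.

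A pair of erythroid members had the same pattern in milder form. Slc4a1, the anion exchanger of red cells, had 10.02, 9.79, 7.02 and 8.95 in the tumors and 6.48, 6.47, 8.97 and 7.44 in the normal livers. Hbb-b2, a beta globin, had 9.12, 9.08, 8.24 and 8.82 against 8.06, 7.38, 9.46 and 8.54. Summed over the 10 genes of the erythroid list, intensity was 80074 to 100723 in the tumors, against 58708, 37979, 106075 and 94357 in normal livers 1 to 4. The sum was carried by globin probes near the top of the scale. Gene by gene, the brightest probe was highest in liver 4 for 6 of the 10 genes and in liver 3 for 4, and in neither liver 1 nor liver 2 for any. Whether blood content bears on the other members was not tested.

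Moxd1, a monooxygenase-like protein on the male-biased list, differed between all normal livers. One probe had 5.82, 5.73, 7.35 and 6.81 in the tumors and 6.91, 10.31, 12.85 and 9.61 in the normal livers, and a second had 5.81 to 6.33 in the tumors and 6.21, 8.80, 11.59 and 8.19. Both ranked the normal livers alike, with liver 3 highest and liver 1 lowest, although the widest gap put them in different patterns. The first fell by 3.49 ± 1.02 log2 units in tumors (SE, limma adjusted p = 0.0314, and 0.0666 without tumor 4). Its call also ended without tumor 1, tumor 2, normal liver 2 or normal liver 4, and its adjusted p reached 0.134 at most over the alternatives. The second probe had a difference of -2.67 with a limma adjusted p of 0.0523, and 0.106 without tumor 4. Slc13a3, a dicarboxylate carrier on the pericentral list, had 1 member among its 3 kept probes, whose narrowest normal range was 0.59 log2 units. The member had 11.26, 11.27, 9.89 and 10.66 in the tumors and 8.18, 8.81, 9.94 and 7.79 in the normal livers. Its rise of 2.09 ± 0.46 was past the threshold with and without tumor 4 (SE, limma adjusted p = 0.00907 and 0.0265), and missed it at 0.0604 when normal liver 4 and tumor 4 were both left out. Cib3, an integrin-binding protein on the male-biased list, had 12.16, 7.90, 7.77 and 10.71 in the tumors, a range wider than its 7.25 to 9.32 in the normal livers.

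The acute phase response gave a second axis among the normal livers, with livers 2 and 3 at the high end and liver 4 at the low end. It is the set of plasma proteins that hepatocytes raise in response to interleukin-6 and related signals. Of 25 measured genes on the list, 10 were members, 1 probe each. Lcn2, Saa2, Saa1 and Apcs were high in livers 2 and 3, Orm2 was high in liver 3 alone, and Saa3, Socs3, Mt1 and Mt2 were low in liver 4 alone. Hamp2 ran the other way and was high in livers 1 and 4. Over the whole list, the brightest probe was highest in liver 3 for 13 genes and lowest in liver 4 for 16, where 26.1% and 24.3% of all kept probes were. Of the list's 36 kept probes, 1 was called higher (2.78%, against 13.2% of all kept probes) and 6 lower in tumors (16.7%, close to the 14.2% of all kept probes). Without tumor 4 it was 1 higher and 2 lower (5.56%, against 9.17%).

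Lcn2, the iron-binding protein lipocalin 2, had 13.05, 13.82, 11.90 and 12.69 in tumors 1 to 4, against 9.41, 12.84, 14.49 and 9.67 in normal livers 1 to 4. All tumors lay inside the normal range, nearer to livers 2 and 3 than to livers 1 and 4. Apcs, the pentraxin serum amyloid P, had 12.23, 12.36, 9.22 and 11.38 in the tumors and 11.16, 13.60, 13.87 and 10.80 in the normal livers. Tumor 3 alone lay below the normal range. Orm2, an orosomucoid, had 13.23, 14.32, 12.07 and 13.19 in the tumors and 12.78, 13.63, 14.94 and 12.36 in the normal livers. Tumor 3 was the lowest tumor in 10 of the 15 members high in livers 2 and 3 (66.7%, where 28.8% of all kept probes had it lowest).

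The serum amyloid A genes encode apolipoproteins that can rise very far in inflammation. Saa2 had 6.44, 7.33, 7.72 and 7.19 in the tumors, against 7.86, 11.10, 11.88 and 8.93 in the normal livers. Saa1 had 6.49, 7.07, 7.51 and 7.12 against 8.14, 10.48, 11.80 and 7.92. All 4 tumors lay below all normal livers in both, but the 2 genes are near-identical and may share signal. Saa2 fell by 2.77 ± 0.78 and Saa1 by 2.53 ± 0.77 log2 units (SE, limma adjusted p = 0.0261 and 0.0359). Saa3, made by macrophages as well as hepatocytes, had 8.22, 9.10, 7.68 and 8.05 in the tumors and 10.25, 10.89, 10.89 and 8.11 in the normal livers, and fell by 1.77 ± 0.58 (SE, limma adjusted p = 0.0483). None of the 3 calls held without tumor 4 (0.0649 for Saa2, 0.0806 for Saa1, 0.114 for Saa3). Leaving out tumor 1 or normal liver 2 also ended all 3, leaving out tumor 2 ended that of Saa1, and that of Saa3 ended without tumor 3, normal liver 1 or normal liver 3 as well. The highest adjusted p over all alternatives was 0.0858, 0.0918 and 0.121 for Saa2, Saa1 and Saa3. A second, brighter probe of Saa1 was kept but was not a member, with a normal range of 1.71 log2 units. It had 9.27, 11.55, 12.12 and 11.62 in the tumors and 13.30, 15.01, 14.73 and 13.54 in the normal livers. Liver 2 was thus highest there, and the probe was called lower with all arrays (limma adjusted p = 0.00623). Its call without single arrays was not examined.

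Socs3, the feedback inhibitor of STAT3 signalling, had 10.70, 10.62, 9.65 and 10.10 in the tumors and 10.13, 10.16, 11.12 and 8.52 in the normal livers. Mt2 and Mt1 encode metallothioneins, which bind zinc and rise in the acute phase and under glucocorticoid. Mt2 had 7.35, 8.0, 7.55 and 7.80 in the tumors, against 9.03, 10.92, 10.94 and 7.0 in the normal livers, and Mt1 had 14.31, 14.63, 13.71 and 14.08 against 14.79, 14.76, 14.77 and 12.77. In all 3 genes liver 4 was below every tumor. Hamp2, a hepcidin, had 7.58, 8.46, 7.90 and 8.05 in the tumors and 10.38, 8.06, 8.13 and 10.99 in the normal livers, so the tumors were near livers 2 and 3.

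The promoters of the metallothioneins are shown for the core of the metal response element, TGCGCNC or TGCACNC, which was present on either strand in 4 of the 9 genes of the pattern with liver 4 alone low (44.4%) and in 23.8% of all genes of the table. The motif was chosen after the genes had been seen, and 4 of 9 genes is a small count. Matches are in capitals. Mt1 is read from chr8:94178839-94179088 and Mt2 from chr8:94172368-94172617, both on the plus strand of GRCm38.p6.
Mt1: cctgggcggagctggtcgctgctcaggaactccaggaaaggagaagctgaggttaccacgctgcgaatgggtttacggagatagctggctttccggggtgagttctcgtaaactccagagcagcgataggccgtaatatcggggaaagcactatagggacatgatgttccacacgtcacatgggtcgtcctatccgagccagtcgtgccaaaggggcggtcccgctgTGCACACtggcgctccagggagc
Mt2: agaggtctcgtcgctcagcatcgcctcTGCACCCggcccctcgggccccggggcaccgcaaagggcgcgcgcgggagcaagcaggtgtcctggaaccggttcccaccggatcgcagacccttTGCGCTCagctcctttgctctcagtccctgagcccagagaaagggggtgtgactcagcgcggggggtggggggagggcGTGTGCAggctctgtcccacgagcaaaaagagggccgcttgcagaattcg

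Further members were low in liver 4 alone. Gene by gene, the immediate early list was lowest in liver 4 for 7 of 20 genes and the stress list for 3 of 15, where 24.3% of all kept probes were. Summed intensity of the immediate early list was lowest in liver 4, at 10596 against 15123, 23421 and 17637 in normal livers 1 to 3. The stress list summed highest in liver 4 (55091 against 47902 to 53280). Its median over genes was nevertheless lowest there (9.16 against 10.13 to 10.64 log2). Gadd45g, a growth arrest gene on the immediate early list, had 11.65, 11.74, 11.58 and 11.50 in the tumors and 12.17, 13.50, 12.86 and 10.68 in the normal livers. Asns, the asparagine synthetase that rises when amino acids are short, had 11.56, 8.11, 9.40 and 10.45 against 10.69, 10.87, 11.27 and 8.17. Tumor 2 was as low as liver 4 there, and tumor 1 was above every normal liver. Cish, a feedback inhibitor of growth hormone signalling through STAT5, had 9.85, 9.55, 8.66 and 9.23 in the tumors and 10.14, 9.59, 10.81 and 8.03 in the normal livers. Prepl, a prolyl endopeptidase-like enzyme, had 1 member among its 2 kept probes. The member fell by 2.76 ± 0.47 log2 units in tumors (SE, limma adjusted p = 0.00244, and 0.0112 without tumor 4). It had 8.25, 8.94, 7.39 and 7.97 in the tumors and 10.59, 11.41, 11.91 and 9.69 in the normal livers, so the groups did not overlap.

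Fasting genes formed another axis, with liver 2 at the high end and liver 3 at the low end. During a fast, fatty acids released from fat activate PPAR alpha in hepatocytes, which turns on oxidation of fatty acids and secretion of Fgf21. Of 18 measured genes on the fasting list, 6 were members, with 7 probes. Cyp4a14, Cyp4a31, Angptl4 and Acot1 were low in liver 3 alone, and Fgf21 and Igfbp1 were high in liver 2 alone. Over the list, the brightest probe was highest in liver 2 for 12 of 18 genes and lowest in liver 3 for 12, where 27.9% and 28.0% of all kept probes were. Of its 23 kept probes, 8 were called higher in tumors (34.8%, against 13.2% of all kept probes) and 3 lower (13%, close to the 14.2% of all kept probes). Without tumor 4 it was 7 higher (30.4%, against 9.03%) and 3 lower. With all arrays, several of the probes called higher were of 1 gene, Cdkn1a, and those called lower were of Pck1 and Tat. The brightest Pck1 probe had 7.75, 10.30, 9.53 and 9.43 in the tumors, against 12.94, 12.96, 11.93 and 12.34 in the normal livers. The list thus did not move in 1 direction.

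Cyp4a14, an omega hydroxylase of fatty acids and a strong PPAR alpha target, had 12.42, 12.72, 12.80 and 12.61 in the tumors, against 10.10, 10.26, 6.34 and 11.43 in normal livers 1 to 4. Liver 3, close to background, was at least 13.6 times below the next normal liver, and all 4 tumors were above all normal livers and within 0.38 of each other. The rise of 3.11 ± 0.89 log2 units (SE, limma adjusted p = 0.0281) was lost without tumor 2, without tumor 3 or without tumor 4 (0.0678), with a highest adjusted p of 0.0766 over the alternatives. Cyp4a31 had 9.17 to 9.25 in the tumors and 7.98, 8.35, 6.16 and 8.82 in the normal livers, but its limma adjusted p was 0.0558, and 0.116 without tumor 4. The Cyp4a genes are close paralogs and may share signal.

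Acot1 and Acot3, thioesterases that release fatty acids from coenzyme A, were lowest in liver 3. Acot1 had 12.12, 11.74, 13.25 and 12.75 in the tumors and 11.59, 12.21, 8.49 and 11.70 in the normal livers. Acot3 had 10.87, 10.13, 10.46 and 10.54 against 9.02, 8.07, 6.24 and 9.98, with all tumors above all normal livers. Its rise of 2.17 ± 0.65 (SE, limma adjusted p = 0.0344) ended without any 1 of the 4 tumors (0.0814 without tumor 4) and without normal liver 2, with adjusted p up to 0.0829. Angptl4, the fasting-induced inhibitor of lipoprotein lipase, had 11.61 to 12.91 in the tumors, inside the 10.83 to 13.12 of the normal livers.

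Fgf21, the hepatokine of fasting, had 10.23, 10.63, 12.34 and 11.82 in the tumors, against 6.67, 8.24, 6.22 and 6.84 in normal livers 1 to 4. The lowest tumor was about 2 log2 units above the highest normal liver, and the rise was 4.26 ± 0.53 (SE, limma adjusted p = 0.00048, and 0.00287 without tumor 4). Igfbp1, a binding protein of insulin-like growth factors that insulin represses, had 12.91, 12.15, 12.44 and 12.53 in the tumors and 9.59, 11.51, 9.52 and 8.54 in the normal livers. It rose by 2.72 ± 0.52 (SE, limma adjusted p = 0.00427, and 0.0162 without tumor 4). Plin4, a coat protein of lipid droplets on the adipocyte list, had 9.44 to 9.86 in the tumors and 8.33, 10.08, 7.45 and 8.31 in the normal livers, and was not past the threshold (limma adjusted p = 0.0897, and 0.161 without tumor 4). Liver 2 was thus the normal liver nearest to the tumors in all 3 genes.

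**Figure D3:**
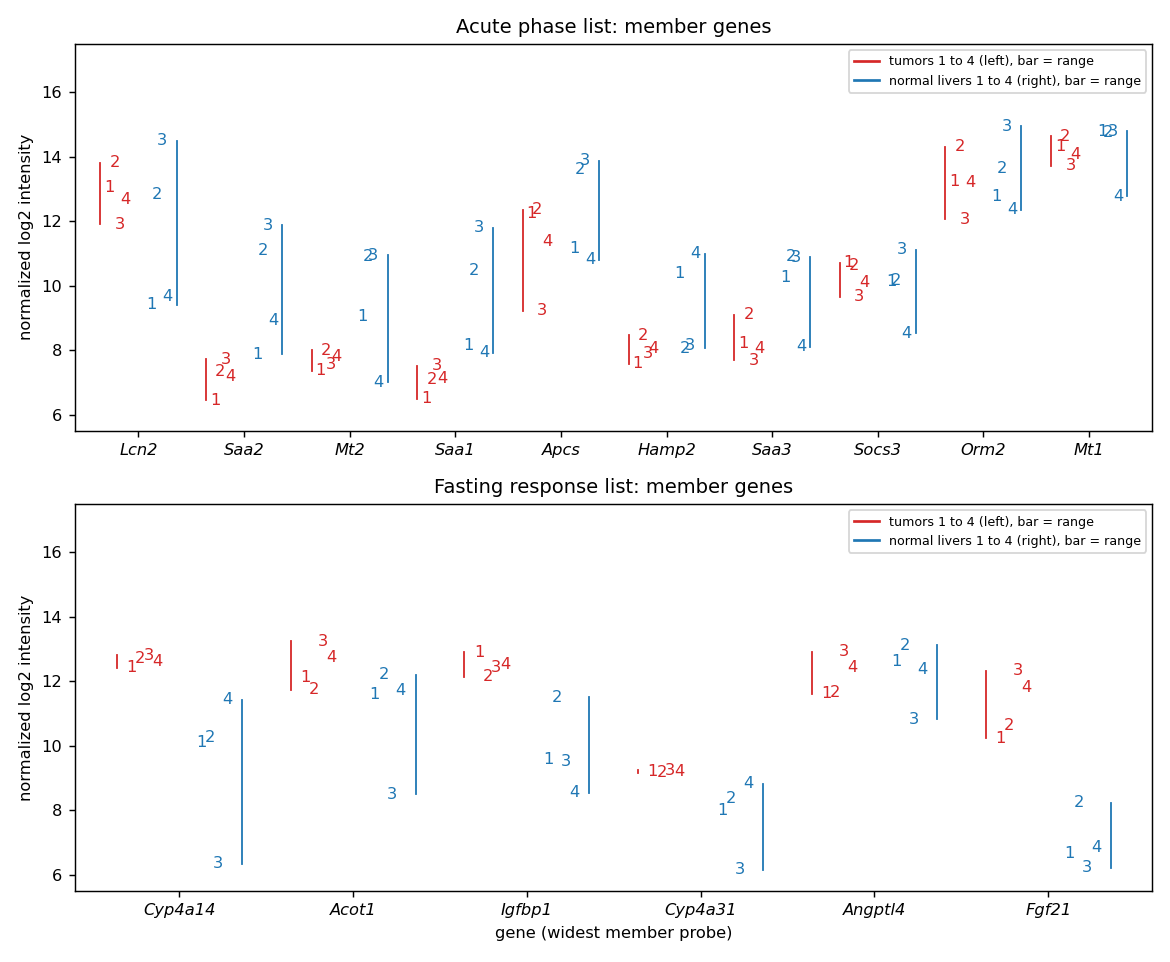
Normalized log2 intensity of the member genes on the acute phase list (upper panel) and the fasting list (lower panel), at the widest member probe of each gene. Digits are the sample numbers, red for tumors (left of each gene) and blue for normal livers (right), and vertical bars give the range. Livers 2 and 3 are high for Lcn2, Saa1, Saa2 and Apcs, and liver 3 is at 6.34 for Cyp4a14 while the tumors are at 12.42 to 12.80.

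Further metabolic genes were low in liver 3. Cyp3a11, a main drug-metabolising P450, had 13.86, 12.81, 12.89 and 13.31 in the tumors, against 13.21, 12.53, 9.19 and 10.98 in the normal livers. Car3, a carbonic anhydrase abundant in fat cells and male liver, had 9.16, 9.56, 11.56 and 11.06 in the tumors and 12.53, 11.43, 8.74 and 12.61 in the normal livers. Liver 3 was the lowest array for both genes. Ndufab1, the mitochondrial acyl carrier protein, had 10.47 to 10.82 in the tumors and 10.99, 9.35, 7.73 and 10.77 in the normal livers at its member probe. Only 1 of its 4 kept probes was a member, and the narrowest normal range among the 4 was 0.21 log2 units, so its probes disagree. Among the 29 members low in liver 3 alone, tumor 3 was the highest tumor in 18 (62.1%, against 31.8% of all kept probes). All 4 tumors lay above the normal range in 7 (24.1%, against 13.7% of all kept probes) and below it in 1 (3.45%, against 15.7%).

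Liver 1 alone was high for some genes of detoxification and for Trib3 of the stress list. Gsta1, a glutathione transferase, had 13.79, 13.42, 12.23 and 13.12 in the tumors, against 9.66, 7.08, 7.60 and 8.60 in normal livers 1 to 4. Every tumor was above every normal liver, and the rise of 4.91 ± 0.53 log2 units was the largest of any member with a gene name (SE, limma adjusted p = 0.000222, and 0.00151 without tumor 4). Probes of the alpha class transferases can share signal with each other. Cyp2c55, a P450 that responds to xenobiotic receptors, had 11.12, 10.54, 11.96 and 11.78 against 8.86, 6.66, 6.29 and 7.39, a rise of 4.05 ± 0.53 (SE, limma adjusted p = 0.000602, and 0.00357 without tumor 4). Trib3, a pseudokinase of the amino acid stress response, had 11.36, 10.11, 10.78 and 10.88 against 9.65, 8.22, 7.36 and 8.64, and rose by 2.31 ± 0.44 (SE, limma adjusted p = 0.00419, and 0.0166 without tumor 4). At these probes of the 3 genes liver 1 was the normal liver nearest to the tumors. Trib3 had other kept probes that were not members. In 1 of them liver 4 was nearest, at 6.81 against 6.58 in liver 1 and 7.01 to 7.60 in the tumors.

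Livers 1 and 4 were high together for Cyp2b10, a P450 that is a classical target of the receptor CAR, and for Cyp2b9 of the female-biased list. The 2 genes are close paralogs whose probes may share signal. Cyp2b10 had 8.95, 7.85, 6.68 and 7.89 in the tumors and 8.73, 6.16, 6.55 and 8.70 in the normal livers. Cyp2b9 had 7.69, 6.96, 5.99 and 6.82 against 7.59, 5.79, 5.86 and 8.48. In both genes tumor 1 was highest and tumor 3 lowest among the tumors. Etnppl, an ethanolamine phosphate lyase, fell by 3.24 ± 0.40 log2 units in tumors (SE, limma adjusted p = 0.000494, and 0.00305 without tumor 4). It had 6.91, 7.04, 6.48 and 6.58 in the tumors and 10.66, 9.51, 8.88 and 10.94 in the normal livers. Rgs16, a regulator of G protein signalling on the clock list, had 11.82, 11.88, 12.52 and 12.19 against 11.13, 9.71, 8.97 and 11.53, and rose by 1.77 ± 0.50 (SE, limma adjusted p = 0.0271), a call that ended without tumor 3, tumor 4 (0.0696) or normal liver 2, with adjusted p up to 0.072. Krt23, a keratin on the cholangiocyte list, had 6.48 to 8.05 in the tumors and 6.60 to 8.75 in the normal livers.

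Genes with a known difference between male and female mouse liver were split over several patterns. Cyp2a4, a female-biased P450, had 13.43, 11.67, 9.87 and 12.72 in tumors 1 to 4, against 8.76, 6.35, 10.12 and 11.65 in normal livers 1 to 4. The normal livers alone spanned 5.30 log2 units, and tumor 3 lay inside that span. A1bg, also female-biased, had 5.75 to 6.14 in the tumors and 8.50, 5.85, 5.93 and 5.92 in the normal livers, so liver 1 alone was high. Elovl3, a male-biased fatty acid elongase, had 5.72, 6.65, 6.37 and 6.44 in the tumors, against 9.64, 9.62, 7.19 and 8.22, and fell by 2.37 ± 0.50 log2 units (SE, limma adjusted p = 0.00757, and 0.0231 without tumor 4). Lrtm1, a leucine-rich repeat protein, had 5.77, 6.95, 6.20 and 5.98 in the tumors and 9.11, 7.53, 8.83 and 9.76 in the normal livers, and fell by 2.59 ± 0.43 (SE, limma adjusted p = 0.00223, and 0.0106 without tumor 4). Eif2s3y of the Y chromosome, not a member, was at 10.70 to 11.67 in the tumors and 11.69 to 11.81 in the normal livers. Of 4 Xist probes, 2 stood out in liver 1, at 6.86 and 6.90 against 5.60 to 5.74 in the other normal livers and 5.55 to 5.80 in the tumors, whereas the others, with 5.89 and 6.15 in liver 1, did not.

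Livers 3 and 4, which rarely stood together, shared high values of Cyp7a1 and, named after its values were seen, Lpl. Cyp7a1, the rate-limiting enzyme of bile acid synthesis, had 10.76, 12.80, 13.13 and 12.61 in the tumors and 10.80, 9.61, 12.64 and 13.24 in the normal livers. All tumors were inside the normal range, with tumor 1 at the level of liver 1. Lpl, lipoprotein lipase, had 13.63, 13.11, 12.002 and 12.83 against 10.02, 9.17, 11.05 and 11.29, and rose by 2.51 ± 0.48 log2 units (SE, limma adjusted p = 0.00456, and 0.016 without tumor 4).

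The position of the tumors was then counted over all members. All 4 tumors lay inside the range of the normal livers in 80 members (34.2%, against 14.5% of all kept probes), a share that a wide normal range raises by construction. They all lay above it in 17 members (7.26%, against 13.7%) and all below it in 20 (8.55%, against 15.7%). In the remaining 117 members the tumors were mixed. Leaving out liver 3 lowered the number inside to 45 (19.2%, against 9.39% of all kept probes) and leaving out liver 4 to 47 (20.1%, against 10.7%). Without both it was 11 (4.7%, close to the 4.37% of all kept probes). The number above was 17 to 31 and the number below 21 to 31 when single arrays were left out, where 14.2% to 16.4% and 16.6% to 19% of all kept probes were. Without liver 3 it was 31 above and 30 below, where 16.1% and 19% of all kept probes were.

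**Figure D4:**
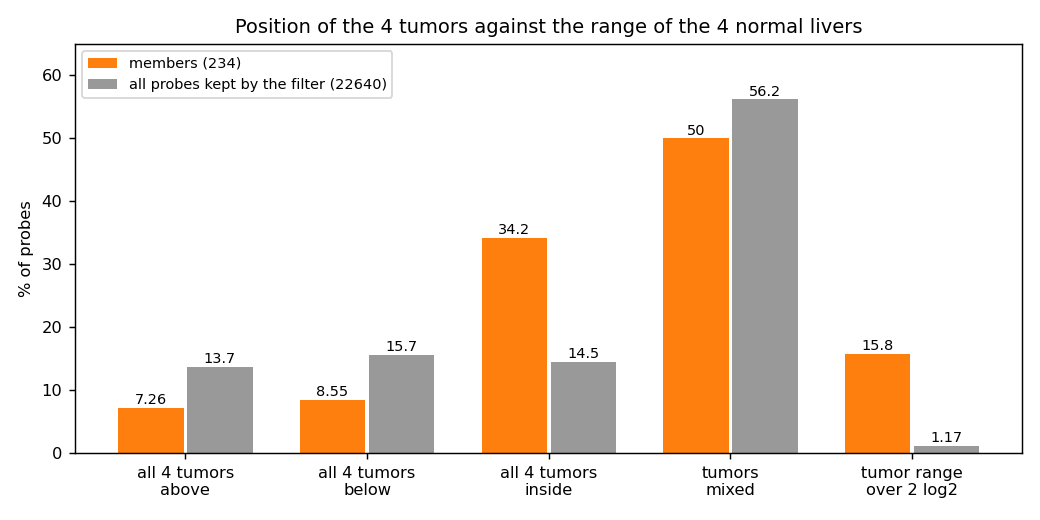
Share of probes whose 4 tumors all lay above, below or inside the range of the 4 normal livers or were mixed, and share with a tumor range over 2 log2 units, for the 234 members (orange) and all 22640 kept probes (grey). Members were inside more often (34.2% against 14.5%) and outside less often, and 15.8% had a wide tumor range against 1.17%.

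The limma fit compared tumors and normal livers over all 22640 kept probes, with Benjamini-Hochberg adjustment over all of them and a threshold of 0.05. It called 40 members (17.1%, against 27.4% of all kept probes). Of these, 24 were higher in tumors (10.3% of members, against 13.2%) and 16 lower (6.84%, against 14.2%). The wide normal spread that chose the members also enlarges their errors, so a smaller share than the background is built into the choice. Without tumor 4, 10 members were called higher and 10 lower (4.27% each, against 9.03% and 9.17% of all kept probes). Without liver 3 it was 32 higher and 23 lower, where 24.8% of all kept probes were called in either direction. The 14 member probes called in the same direction in all 20 alternative fits included Gsta1, Fgf21, Cyp2c55, Igfbp1, Trib3 and Lpl among the rises, and Etnppl, Prepl, Lrtm1, Elovl3 and B3galt1 among the falls, and the highest limma adjusted p among the 14 over those fits was 0.0413, for Elovl3. B3galt1, a galactosyltransferase named after its values were seen, had 6.98, 8.73, 8.57 and 8.36 in tumors 1 to 4 and 10.15, 11.56, 11.59 and 9.53 in normal livers 1 to 4. ILMN_1223496, without a gene, had 11.32, 11.03, 10.99 and 11.13 against 7.89, 7.46, 7.82 and 9.86, so that even liver 4, the highest normal liver, was below every tumor. Acpp, a phosphatase, had 5.83 to 5.99 in the tumors and 7.71, 7.58, 9.24 and 7.22 in the normal livers, a fall of 2.04 ± 0.36 log2 units (SE, limma adjusted p = 0.00308, and 0.0129 without tumor 4).

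Most members were not as variable between tumors, but more of them were than of all kept probes. The tumors spanned more than 2 log2 units in 37 members (15.8%), against 1.17% of all kept probes, and the median tumor range was 0.79 in members and 0.33 in all kept probes. The kept probes include dim ones close to the floor of 5.55, where a wide range is hardly possible. Every member, by the rule, was more than 2 log2 units above the floor in some normal liver. The share among members differed between patterns. It was 13 of 137 (9.49%) in the members high in liver 3 alone or liver 4 alone, which hold the kidney and muscle genes, and 24 of 97 (24.7%) in the rest. That contrast is partly fixed by the choice of members. In 21 of the 76 members high in liver 3 alone, every other array was under 6.5 log2, close to background. The same held in 34 of the 61 high in liver 4 alone. No normalized value was below 5.55, so the tumors could not span 2 log2 units in these probes. Much of the spread came from tumor 3: without it the tumors spanned more than 2 log2 units in 11 members (4.7%), against 0.486% of all kept probes. In 35 of the 37 members tumor 4 lay between the lowest and highest of tumors 1 to 3, as it did in 261 of the 266 kept probes with such a range.

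**Figure D5:**
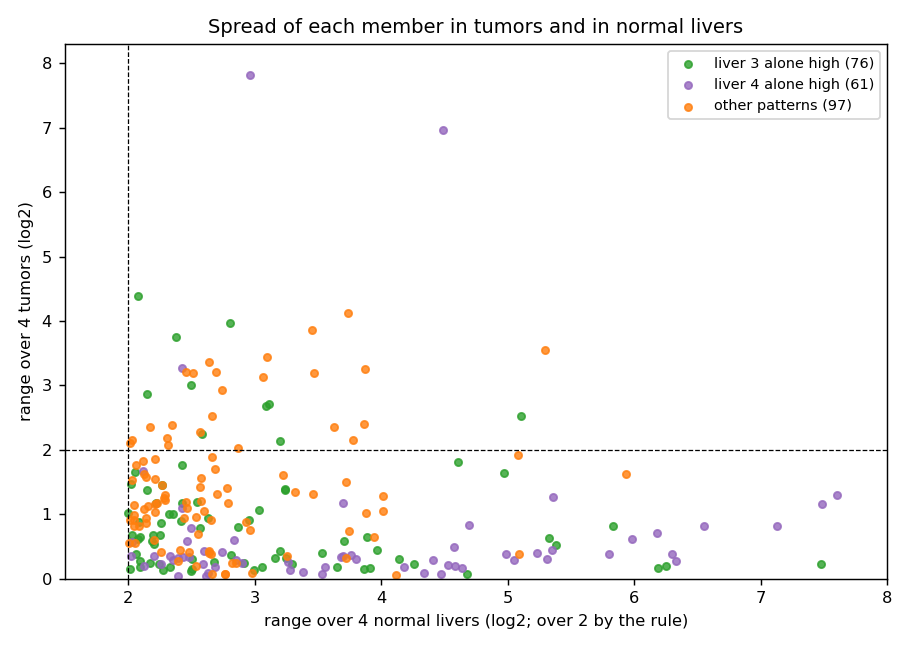
Range over the 4 tumors (vertical axis) against range over the 4 normal livers (horizontal axis), both in log2 units, for each of the 234 members. Dashed lines mark 2 log2 units. The members with the widest normal range, in livers 3 and 4, mostly had tumor ranges under 2, and of the 97 probes of the other patterns 24 exceeded 2 in the tumors. Many members high in liver 3 alone or liver 4 alone were close to background on every other array, where a tumor range over 2 was not possible.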

How the data were processed

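Total RNA of 8 liver samples was amplified, labelled with biotin by in vitro transcription and hybridised to Illumina arrays, per the labels' protocols. The deposited table holds the authors' probe intensity per array on a linear scale. BeadStudio is named in the submitters' processing notes without a version, and no background subtraction or scaling could be seen in the values. A second deposited table by the authors holds log2 values of the same arrays. Its columns share 1 distribution (median 6.02), correlate best with the intensities of the same sample, and differ from log2 of the quantile normalized intensities by at most 0.29. The table carries no detection p-value, slide or scan label, so no probe was called absent and such batches could not be tested. The number of arrays limits the precision.

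Each array was floored at its own 5th percentile, transformed to log2 and quantile normalized with the others. No background was subtracted, so ratios understate the change of dim probes. Probes with a mean over 8 arrays above the median probe were kept. The difference between tumors and normal livers was estimated without covariates in R 4.3.3 with the limma package (version 3.58.1, lmFit and eBayes), and the script was tested on simulated data. Genes come from the platform annotation: 34885 probes have 1 gene, 18 several and 10378 none. List sums use the brightest probe of each gene. Promoter sequences are RefSeq's, of build GRCm38.p6.

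The members and lists were chosen with earlier results of these data known. Genes were named by a rule: the 6 widest of each pattern with at least 10 members, members on a list, the 5 largest called rises and falls, and the 3 probes on each side of the range threshold. The kidney list, the motifs printed and the genes so marked were chosen after values were seen. Same-numbered samples did not deviate together (correlations 0.0607, -0.0269, -0.145 and 0.078), and no pairing was assumed. No 2 arrays had the same raw value at any probe. Alternatives were the normalization, the floor, the filter, the range, the authors' log2 values, moderation, the replicate block and leaving out arrays.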

Additional observations from a re-analysis of the deposited data

Results flagged for a closer look

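Summed intensities of the lists and summaries of each array were examined within the 4 tumors and within the 4 normal livers, and named members within the tumors, for a single sample far from the others. Of 115 groups of 4 values, 5 had one, and chance gives about 1 in 20, so the number is no more than chance gives. The flagged muscle, kidney and acinar sums are of normal livers and include members, which were chosen for their spread there. They are therefore a description.

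The skeletal muscle list summed to 46700 in normal liver 4, against 691 to 779 in the other normal livers. The kidney list summed to 21814 in normal liver 3, against 2454 to 2796, but this list was chosen after the values had been seen. In the same liver the pancreatic acinar list summed to 25818, against 21545 to 21858, and Klk1 and Spink1 were its only members. The hepatocyte list summed to 197233 in tumor 2, against 186540 to 188203 in the other tumors, and to 231253 in normal liver 4, against 210833 to 213036 in the other normal livers.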

How the results depend on the processing

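The number of members was 126 when probes had to exceed the 75th percentile of the probe means, 439 with a range over 1.5 and 90 with a range over 3. Leaving out 1 array at a time gave 110 to 245, leaving out normal liver 4 and tumor 4 together gave 141, and leaving out normal livers 3 and 4, an alternative added after seeing the data, gave 24. Members called higher were 14 without a filter, 10 with trended robust moderation, 15 without normal liver 4 and tumor 4, 37 without normal livers 3 and 4, and 10 to 32 without single arrays. Members called lower were 10 with trended robust moderation and 10 to 23 without single arrays. Calls in either direction took 13.5% of all probes without a filter and 26.7% of kept probes with trended robust moderation. They took 12.7% of kept probes without normal liver 4 and tumor 4, 18% without normal livers 3 and 4, and 18.2% to 24.8% without single arrays. Members with all tumors inside the normal range were 50 without normalization, 53 without normal liver 4 and tumor 4, 11 without normal livers 3 and 4, and 45 to 99 without single arrays. Of all kept probes, 10.9%, 12.7%, 4.37% and 8.81% to 19.8% lay inside in these settings. Those with all tumors below were 42 without normalization, 41 without normal livers 3 and 4, and 21 to 31 without single arrays, where 21%, 23.2% and 16.6% to 19% of all kept probes were. Those with all tumors above were 53 without normal livers 3 and 4 and 17 to 31 without single arrays, where 19.8% and 14.2% to 16.4% of all kept probes were. Those wide in tumors were 11 to 37 without single arrays, where 0.486% to 1.17% of all kept probes were. The replicate block gave 20 higher and 16 lower, where 22.4% of all kept probes were called, and S100a8 and S100a9 were not past the threshold in it. Of 21 named called members, 10 were not past it with trended robust moderation: Cyp4a14, Acot3, Saa1, Saa2, Saa3, Moxd1, S100a8, S100a9, Rgs16 and Fxyd6. Without a filter 6 were not: Cyp4a14, Acot3, Saa1, Saa3, Moxd1 and Rgs16. The call of Saa3 also ended with cyclic loess or median scaling, or with normexp correction in place of the floor. That of Rgs16 ended without normalization. Leaving out arrays also leaves fewer samples, and otherwise the cause was not tested. No called member changed direction under any alternative, and of the counts not given here 1 moved by more than 1.5 times: the pattern with liver 4 alone low, 11 members, held 18 without normalization.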

Other observations

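Lists without members also ordered the normal livers. All 7 genes of antigen presentation by MHC class II, which macrophages and dendritic cells use to show peptides to T cells, were highest in liver 1 at their brightest probe, where 23.2% of all kept probes were. Summed intensity was 6489 to 8455 in the tumors, against 9639, 4524, 5489 and 4958 in normal livers 1 to 4. The macrophage and Kupffer cell list was lowest in liver 4 for 11 of 12 genes (24.3% of all kept probes), with sums of 28420, 30171, 8574 and 17667 in tumors 1 to 4 and 19904, 18565, 23780 and 13547 in the normal livers.

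Sterol synthesis genes, which encode the steps to cholesterol, were highest in liver 2 for 12 of 16 genes and lowest in liver 4 for 12, where 27.9% and 24.3% of all kept probes were. Their sums were 44802 to 66836 in the tumors, against 41462, 57956, 49375 and 35121 in normal livers 1 to 4. The xenobiotic list, which has 4 member genes, was highest in liver 1 for 16 of 22 genes (23.2% of all kept probes), with sums of 170889 to 228958 in the tumors and 164059, 108260, 83130 and 126573 in the normal livers. For the mesothelium list all 5 genes were highest in liver 4 (22.8% of all kept probes), at sums of 310 to 336 in the tumors and 323, 360, 357 and 459 in the normal livers. Only 1 of the 5 genes had a kept probe. The median over genes was 6.38 log2 in liver 4 and 6.09 to 6.14 in the other normal livers, so the list was close to background.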
